A study of Mus musculus with 15 samples.

Results

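Complex I, the NADH dehydrogenase of the mitochondrial respiratory chain, was examined together with all protein-coding genes of the mitochondrial genome in RAW 264.7 cells, an established mouse macrophage line grown in RPMI medium with serum. The genes were chosen by their symbols: protein-coding genes whose symbol begins with Nduf, a letter from a, b, c, s or v and a digit (39 nuclear genes, here the nuclear complex I genes), and the 13 genes whose symbol begins with mt-Nd, mt-Co, mt-Atp or mt-Cytb (the mitochondrial genome genes), which makes 52 of the 57186 genes in the count table. The nuclear set takes in Ndufa4, which carries a complex I name but belongs to complex IV, and its relative Ndufa4l2, and leaves out Ndufab1, whose symbol has no digit in that place. The cells were saturated for 6 h with nonporous silica nanoparticles of 100 nm (SNP100, 50 µg/mL) or 50 nm (SNP50, 25 µg/mL), with mesoporous particles of 100 nm (MSNP, 200 µg/mL) or with hollow mesoporous particles of 100 nm (HMSNP, 200 µg/mL), or were left nontreated (Control). Each group had 3 libraries of poly(A) RNA, 15 in all. Every dose was the highest that the study found nontoxic, so the particles differ in dose as well as in size and porosity.

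Complex I takes electrons from NADH, passes them along iron-sulfur clusters to ubiquinone and pumps protons across the inner membrane. Its arm in the matrix holds an NADH-binding module (N) and a ubiquinone-binding module (Q), whose catalytic core is encoded in the nucleus, while the core of its membrane arm is made of ND subunits encoded in the mitochondrial genome. The other, accessory subunits are nuclear and serve assembly and stability. In macrophages, respiration through complex I is known to fall when the cells switch to glycolysis after inflammatory activation, and complex I is a known source of reactive oxygen species.

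Total counts lay between 29369900 and 42617800 per library. All 8 macrophage markers were above 1 CPM in every library, with a summed level of 12920 to 19268 CPM, and all markers of T cells, B cells, epithelial cells, fibroblasts and endothelial cells were below 1 CPM in every library. CPM values here are counts scaled to a common library size with TMM factors, so that libraries of different depth can be compared. Of the 52 genes, 51 passed the filter of at least 10 counts summed over the libraries. The exception was Ndufb11b, with 0 counts in every library, and Ndufa4l2 passed with 18 counts in all, so that its fold changes carry little information. Nothing in the labels says that the 3 libraries of a group came from separate cultures. The p-values therefore measure the spread between these libraries, which may be technical. The library titles of each group begin with a number of their own, whose meaning is not given in the sources used here, so that whatever it marks and the treatment cannot be told apart.

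The Control library of replicate number 3 (Control 3) stood apart from the other controls in the nuclear complex I genes. These genes took 0.260% and 0.242% of the counts in Control 1 and Control 2 and 0.408% in Control 3, while the 12 treated libraries lay between 0.239% and 0.332%. Taken gene by gene, 36 of the 37 nuclear genes above the lowest levels were higher in Control 3 than in the mean of Control 1 and Control 2, with a median ratio of 1.82. The exception was Ndufs1, the largest core subunit, with 158, 162 and 141 CPM in the 3 controls and a ratio of 0.882.

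The difference followed transcript length across the whole table. Among 10652 genes, the deviation of Control 3 from the mean log2 CPM of the other controls had a Spearman correlation of -0.719 with transcript length. It was 0.580 for Control 1 and 0.716 for Control 2, each set against the mean of the other controls. Control 3 is part of that mean for both, so these values are not independent of its trend. The correlations are given as a description across genes that share a library. The 10% of genes with the shortest transcripts lay 0.70 higher in Control 3 on the log2 scale, in the median, and the 10% with the longest lay 0.86 lower. Most complex I transcripts are short, with a median annotated length of 980.5 nt against 3333 nt for all genes in this trend. Their median deviation in Control 3 was 0.87, and that of 1678 other genes between the same quartiles of length was 0.55. Among the nuclear genes themselves, the 19 with transcripts of up to 1000 nt had ratios of 1.71 to 2.25, and Ndufa10, with the longest annotated transcript (7389 nt), had 1.29. The relation within the class was loose (Spearman correlation of the ratio with length -0.351 over 37 genes). Ndufb2, Ndufb9, Ndufs4 and Ndufs6 are annotated with transcripts of 3593 to 4389 nt and had ratios of 1.80 to 2.14. For Ndufb2 the annotated length is uncertain, with 4389 nt for the canonical transcript and 476 nt for the median of its coding transcripts. The first SNP50 library showed a weaker trend of the same direction (-0.586), with a median deviation of 0.23 for the nuclear complex I genes. The cause of these trends was not tested. Control 1 and Control 2 also differed from each other. The mean chi-square per gene between the counts of 2 libraries was 66.2 for this pair, and 174 and 205 for Control 3 against each of them. Between replicates of the treated groups it was 4.58 to 13.9. The main comparisons with the controls are given below with and without Control 3, and the controls left in the latter are not a close pair.

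**Figure D1:**
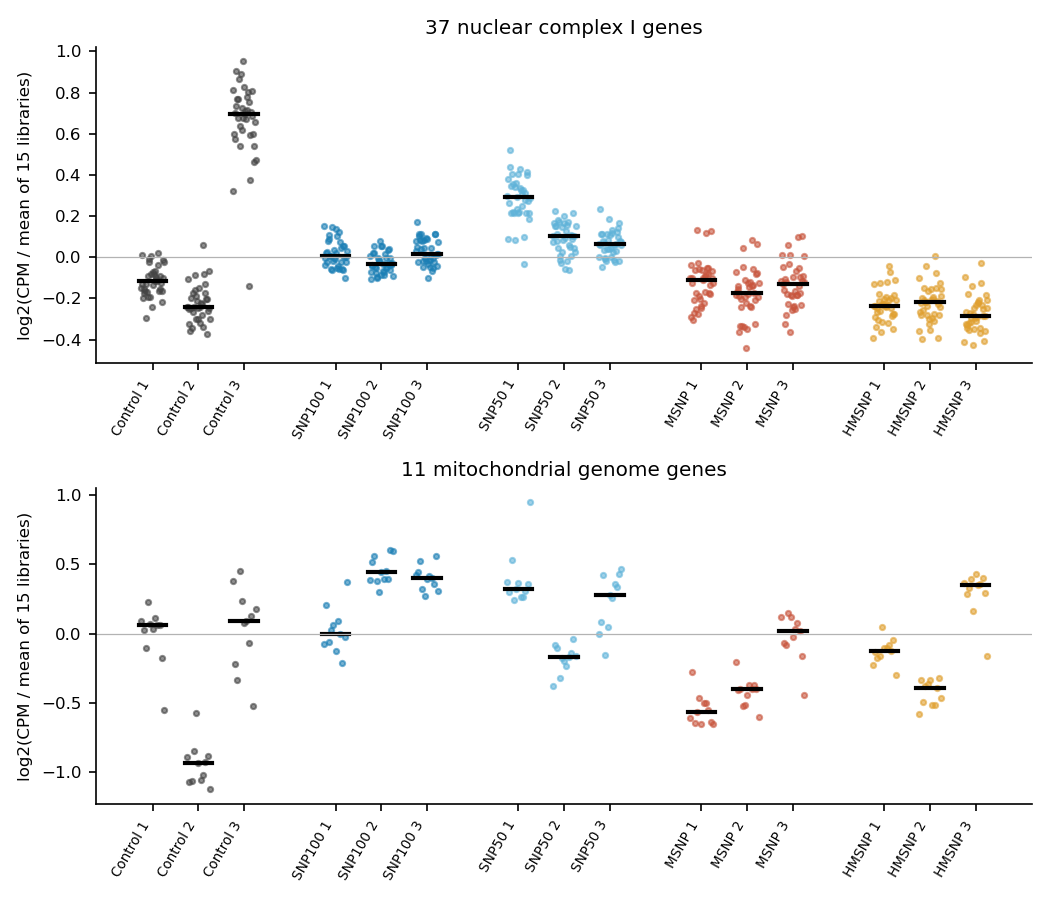
Level of each gene in each library relative to the gene's mean over the 15 libraries (log2 scale), for 37 nuclear complex I genes (top, without Ndufa4l2) and 11 mitochondrial genome genes (bottom, without mt-Nd3 and mt-Nd4l, which lie under 2 CPM). Black bars mark the median of the genes. The nuclear genes are high together in Control 3 and vary little among the treated libraries of a group, whereas the mitochondrial genes vary together between replicates, with Control 2 lowest.

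**Figure D2:**
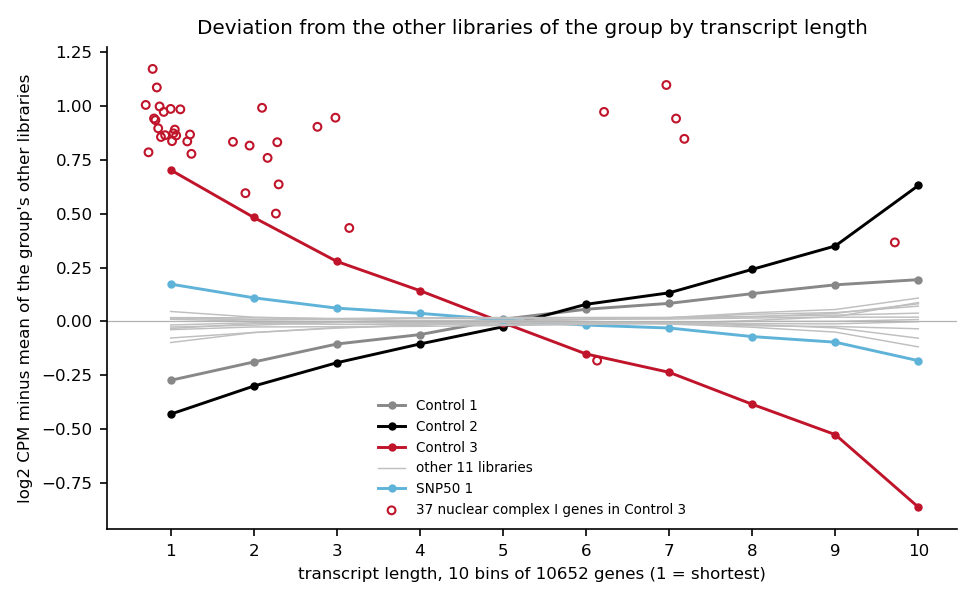
Deviation of log2 CPM from the mean of the other libraries of the group, as the median over genes in 10 bins of transcript length with equal numbers of genes, for each library (lines), and for each of the 37 nuclear complex I genes in Control 3 (open circles, spread sideways within their bin). Control 3 runs from 0.70 in the shortest bin to -0.86 in the longest, and 20 of the nuclear genes lie in the shortest bin.

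Relative to all 3 controls, nuclear complex I genes lay lower in most particle-treated groups, by small amounts that rarely passed the test. The only call was Ndufb1 in the MSNP-treated cells, 1 of 38 genes tested, where 22.8% of the 19839 tested genes were called, 11% lower. Ndufb1, an accessory subunit of the membrane arm, had 40.1, 36.2 and 74.8 CPM in the controls, 44.7, 40.3 and 42.8 in the SNP100-treated, 51.1, 39.6 and 41.5 in the SNP50-treated, 33.3, 32.0 and 31.4 in the MSNP-treated and 31.4, 33.2 and 33.4 in the HMSNP-treated libraries. All MSNP- and HMSNP-treated libraries lay below the lowest control. The log2 fold change was -0.65 (SE 0.20, adjusted p = 0.0282, edgeR's quasi-likelihood test) with MSNPs and -0.63 (SE 0.20, adjusted p = 0.0837) with HMSNPs. Without Control 3 the MSNP value was -0.24 (SE 0.084, adjusted p = 0.0413), smaller by more than 1.5 times, and over all 24 alternatives the adjusted p ranged from 0.00227 to 0.183. The gene was called in 20 of the 24. The call was lost when any MSNP-treated library was left out and when only the 6 libraries of the comparison were fitted. Ndufb1 lies at chr12:101934343-101943331 (minus strand, GRCm39) and overlaps Cpsf2 on the opposite strand. In bulk RNA, a lower level in every cell and a lower level in only a part of the cells cannot be told apart.

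In the other comparisons with the controls 0 nuclear complex I genes were called. The share of all tested genes called was 0.912% with SNP100, 1.41% with SNP50 and 5.16% with HMSNPs. At an unadjusted p under 0.05 the same test gave 0 of the 38 genes with SNP100 (10.5% of all tested genes), 0 with SNP50 (12%), 12 with MSNPs (34.5%) and 26 with HMSNPs (24%). The count with MSNPs was thus near the share of all genes. DESeq2 called 0 with SNP100 (2.5% of all tested genes), 0 with SNP50 (3.43%), 5 lower with MSNPs (11.7% lower) and 5 lower with HMSNPs (5.16% lower). The median log2 fold change of the 38 genes was -0.16 with SNP100, -0.029 with SNP50, -0.31 with MSNPs and -0.40 with HMSNPs, where the median of all tested genes was between -0.052 and -0.0017. By direction, 38 of 38 genes were lower with SNP100, 23 with SNP50, 35 with MSNPs and 37 with HMSNPs, and these genes share the same control libraries. All 3 treated libraries lay below all 3 controls for 4 genes with MSNPs (16.2% of all tested genes) and for 12 with HMSNPs (12%).

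Leaving out Control 3 changed these results for the class as a whole. The medians became 0.17 with SNP100, 0.33 with SNP50, 0.043 with MSNPs and -0.063 with HMSNPs. With SNP100, 9 nuclear genes were then called higher and 0 lower, where 2.84% of all tested genes were called higher. With SNP50, 32 were called higher and 0 lower (9.63% higher). With MSNPs, Ndufs8, Ndufa8 and Ndufb10 were called higher (16.3%) and Ndufb1 lower (13.2%), and with HMSNPs 0 were called (8.66% in either direction). Leaving out Control 2 moved the values the other way, with 27 genes called lower with MSNPs (16.8% of all tested genes) and 36 with HMSNPs (11.9%). With Control 3 left out and the length trend of each library removed as well, the calls were 3 higher with SNP100 (3.12% of all tested genes), 16 higher with SNP50 (7.05%), 6 higher and 2 lower with MSNPs (15.9% and 16.2%) and 0 with HMSNPs (11.3%). The direction of the nuclear complex I genes relative to the controls thus differed between these settings, and Ndufb1 with MSNPs was lower in each of them.

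**Figure D3:**
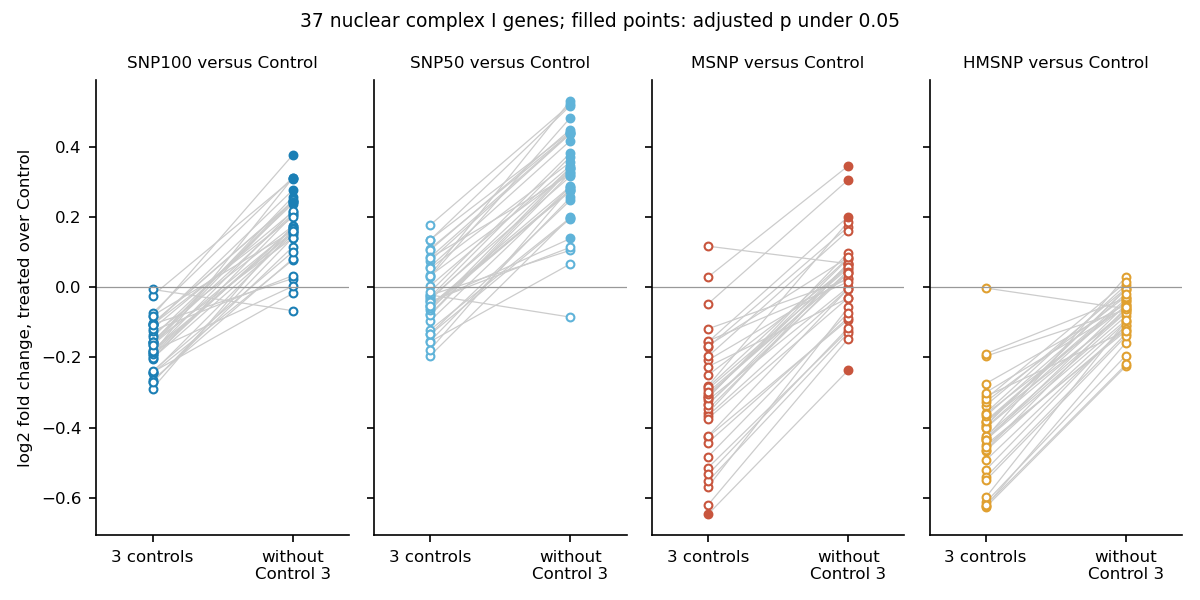
Log2 fold change over the controls of 37 nuclear complex I genes in each particle-treated group, with all 3 controls (left) and without Control 3 (right), 1 line per gene. Filled points have an adjusted p under 0.05. With SNP50 the median moved from -0.029 to 0.33 and with HMSNPs from -0.40 to -0.063.

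Among the catalytic core subunits of the N module, Ndufv1 binds NADH and its flavin cofactor, and Ndufv2 and Ndufs1 carry iron-sulfur clusters. Ndufv1 had 106, 102 and 147 CPM in the controls, 106, 104 and 104 in the SNP100-treated, 122, 111 and 113 in the SNP50-treated, 102, 102 and 100.4 in the MSNP-treated and 94.3, 98.2 and 94.4 in the HMSNP-treated libraries. Ndufv2 had 111, 100.1 and 187 CPM in the controls, 119, 117 and 120.0 in the SNP100-treated, 138, 121 and 125 in the SNP50-treated, 110.5, 104 and 109 in the MSNP-treated and 109.9, 107 and 103 in the HMSNP-treated libraries. Ndufs1 had 158, 162 and 141 CPM in the controls, 160.4, 150.2 and 149 in the SNP100-treated, 152, 149 and 153 in the SNP50-treated, 169, 165 and 167 in the MSNP-treated and 151, 156 and 153 in the HMSNP-treated libraries. For Ndufv1 and Ndufv2 the highest library was Control 3 and the MSNP- and HMSNP-treated libraries were the lowest or among the lowest, and for Ndufs1 all 3 MSNP-treated libraries lay above every other library. The log2 fold changes with MSNPs over the 3 controls were -0.23 (SE 0.11, adjusted p = 0.145), -0.30 (SE 0.16, adjusted p = 0.214) and 0.12 (SE 0.062, adjusted p = 0.200) in the same test.

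In the core of the Q module, Ndufs7 and Ndufs8 carry iron-sulfur clusters, Ndufs7 lies at the ubiquinone site, and Ndufs3 is part of the connecting arm. Ndufs3 had 60.5, 60.1 and 102 CPM in the controls, 65.1, 69.5 and 65.4 in the SNP100-treated, 84.2, 73.1 and 70.8 in the SNP50-treated, 64.0, 61.8 and 61.5 in the MSNP-treated and 59.2, 61.0 and 57.6 in the HMSNP-treated libraries. It showed the same order as the class, with Control 3 highest and the SNP50-treated libraries above the others. Ndufs7 had 65.0, 56.2 and 110.2 CPM in the controls, 72.7, 69.6 and 73.1 in the SNP100-treated, 95.7, 84.5 and 81.6 in the SNP50-treated, 66.2, 68.7 and 67.0 in the MSNP-treated and 60.04, 59.8 and 59.6 in the HMSNP-treated libraries. Ndufs8 had 97.4, 94.7 and 165 CPM in the controls, 106, 111 and 115 in the SNP100-treated, 137, 122 and 112 in the SNP50-treated, 124, 119 and 122 in the MSNP-treated and 93.7, 95.8 and 88.4 in the HMSNP-treated libraries. In all 3 genes every MSNP-treated library lay above Control 1 and Control 2. Ndufs8 differed from Ndufs3 and Ndufs7 in that its MSNP-treated libraries also lay above every SNP100-treated library. The log2 fold changes with MSNPs over the 3 controls were -0.25 for Ndufs3, -0.20 for Ndufs7 and 0.029 for Ndufs8, none called (lowest adjusted p = 0.267). Without Control 3, Ndufs8 was 0.35 higher (SE 0.065, adjusted p = 0.000390), in a range of adjusted p from 2.47e-06 to 0.948 over its 24 alternatives.

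The accessory subunits had negative medians in every module with MSNPs and with HMSNPs when all 3 controls were used, and 3 of the 4 medians with MSNPs turned positive without Control 3. With all 3 controls, the median log2 fold change with MSNPs and with HMSNPs was -0.31 and -0.44 for the 5 accessory subunits of the N module, -0.31 and -0.39 for the 4 of the Q module, -0.32 and -0.45 for the 9 of the NDUFA, NDUFC and NDUFS5 group of the membrane arm, and -0.37 and -0.43 for the 11 of its NDUFB group. All 29 were lower in both groups, with Ndufb1 the only call (11% of all tested genes were called lower with MSNPs and 2.7% with HMSNPs). With SNP50 the medians were 0.035, -0.062, -0.052 and -0.079 for the same modules, in that order. Without Control 3 they were 0.044, 0.034, 0.048 and -0.0045 with MSNPs, where 3 of 5, 3 of 4, 7 of 9 and 5 of 11 genes were higher, between -0.094 and -0.021 with HMSNPs, and between 0.32 and 0.38 with SNP50. With all 3 controls, the medians of the 7 core subunits with MSNPs and with HMSNPs were -0.23 and -0.31 for the N module and -0.18 and -0.34 for the Q module, and without Control 3 they were 0.042 and -0.061 for the N module and 0.11 and -0.029 for the Q module. The difference between core and accessory subunits was not tested. Ndufa4, a subunit of complex IV, had 145, 138 and 269.9 CPM in the controls, 168, 165 and 168 in the SNP100-treated, 201, 171 and 167 in the SNP50-treated, 131, 125 and 130.4 in the MSNP-treated and 133, 133 and 127 in the HMSNP-treated libraries. It had the highest level per kb of transcript of the nuclear genes, and its MSNP- and HMSNP-treated libraries all lay below Control 2.

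Comparisons between particle-treated groups do not use the controls for their fold change, although the controls enter the shared estimate of spread. The 37 nuclear genes fell into an order, with the group mean of SNP50 above SNP100 in 36, SNP100 above MSNP in 33, MSNP above HMSNP in 33 and all of these in 29. These genes vary together and rest on 3 libraries per group, and the first SNP50 library carries the length trend given above (-0.586). Of 19839 tested genes, 9930 had a higher fold change in SNP50 versus SNP100, 10550 a lower one in MSNP versus SNP100 and 9832 a lower one in HMSNP versus MSNP. In the fit of all 15 libraries none of these differences was called for any nuclear gene (0 of 38 in each comparison, where 17.9%, 0% and 20.2% of all tested genes were called for MSNP versus SNP100, SNP50 versus SNP100 and HMSNP versus MSNP). At an unadjusted p under 0.05 the counts were 0, 0 and 1 (28.4%, 4.37% and 29.9% of all tested genes), and DESeq2 called 0, 0 and 0 (19.6%, 0.00504% and 21.3% of all tested genes).

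The replicates of the treated groups lay close together, so that many genes did not overlap between groups. Relative to SNP100, all 3 MSNP-treated libraries were lower for 27 of 38 genes (22.7% of all tested genes were separated in that direction) and higher for 4 (22.9%), with a median log2 fold change of -0.15. SNP50-treated libraries were all higher than SNP100-treated ones for 18 genes (11.6%), with a median of 0.13. HMSNP-treated libraries were all lower than MSNP-treated ones for 21 genes (23.7%), with a median of -0.083. When only the 6 libraries of a comparison were fitted, 37 nuclear genes were tested, of which 3 were called higher and 23 lower for MSNP versus SNP100 (21.9% and 19% of all tested genes), 0 for SNP50 versus SNP100 (0%) and 13 lower for HMSNP versus MSNP (20.4%). Without Control 3 the calls were 2 higher and 16 lower (18.2% and 14.8%), 2 higher (0.286%) and 7 lower (18.4%). In the same settings the medians stayed between -0.15 and -0.14 for MSNP versus SNP100, at 0.13 for SNP50 versus SNP100 and between -0.091 and -0.067 for HMSNP versus MSNP.

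Ndufs8, Ndufa8 and Ndufb10 were called higher with MSNPs over the controls when Control 3 was left out, and were chosen for description after their values were seen. Ndufa8, an accessory subunit at the intermembrane-space side of the membrane arm, had 78.1, 75.4 and 139 CPM in the controls, 85.9, 83.4 and 88.1 in the SNP100-treated, 104, 89.6 and 89.1 in the SNP50-treated, 97.8, 92.1 and 93.0 in the MSNP-treated and 74.6, 76.7 and 72.8 in the HMSNP-treated libraries. Ndufb10, an accessory subunit of the same arm, had 63.5, 59.0 and 111 CPM in the controls, 71.7, 71.6 and 74.7 in the SNP100-treated, 93.2, 80.3 and 78.4 in the SNP50-treated, 69.7, 67.2 and 73.2 in the MSNP-treated and 58.3, 61.5 and 54.0 in the HMSNP-treated libraries. For Ndufs8 and Ndufa8 every MSNP-treated library lay above every SNP100- and HMSNP-treated library, whereas most nuclear genes were lower with MSNPs than with SNP100. Every MSNP-treated library also lay above every SNP100-treated one for Ndufs1 and Ndufa9, whereas for Ndufb10 these groups overlapped. In HMSNPs relative to MSNPs the log2 fold change was -0.39 for Ndufs8 (SE 0.16, adjusted p = 0.105), -0.34 for Ndufa8 (SE 0.17, adjusted p = 0.203) and -0.27 for Ndufb10 (SE 0.17, adjusted p = 0.336). With the 6 libraries alone the values were -0.38 (SE 0.037), -0.32 (SE 0.036) and -0.26 (SE 0.049), and all 3 were called, as they were in 4 of 24 alternatives each, with adjusted p up to 0.562 in the others. They were among 13 nuclear genes called in that fit, and Ndufa1 was called in 4 of 24 alternatives as well. Ndufs8 lies at chr19:3958862-3962948, Ndufa8 at chr2:35917572-35939425 and Ndufb10 at chr17:24941032-24943453, all on the minus strand of GRCm39, and Ndufa8 overlaps Morn5 on the opposite strand.

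**Figure D4:**
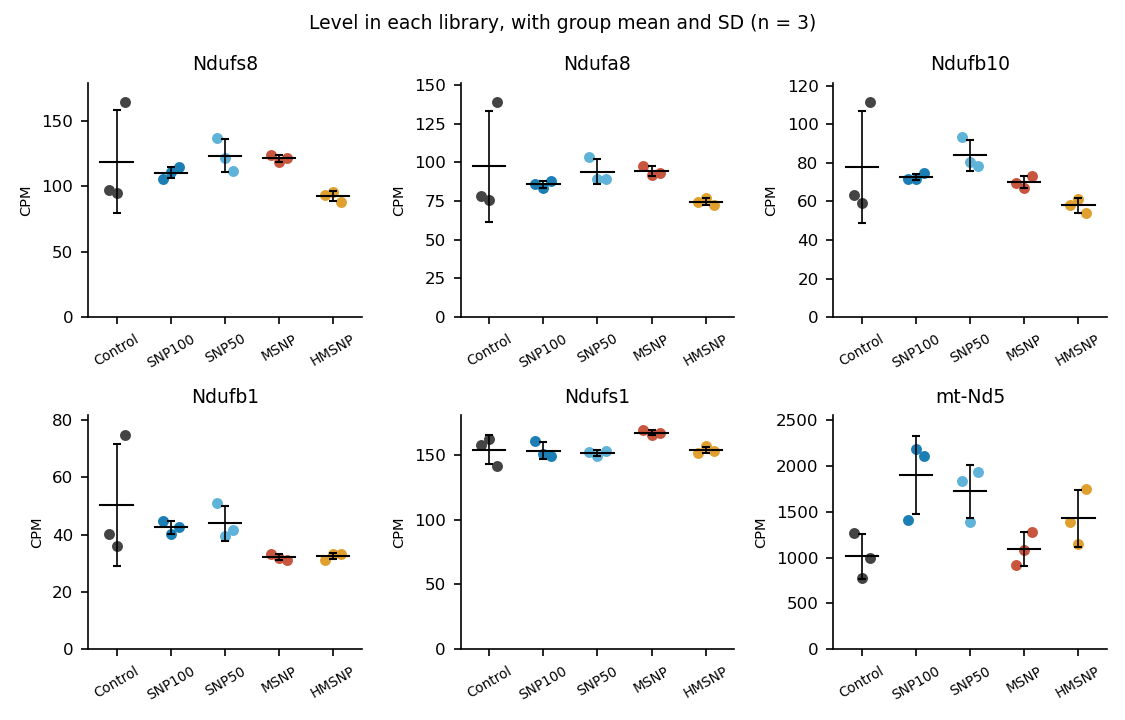
CPM of Ndufs8, Ndufa8, Ndufb10, Ndufb1, Ndufs1 and mt-Nd5 in each library, with the mean (bar) and SD (error bar) of each group of 3. Control 3 lies far above the other controls for the first 4 genes and below them for Ndufs1, and the MSNP- and HMSNP-treated libraries of Ndufs8 and Ndufa8 do not overlap.

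The mitochondrial genome is transcribed from each strand as long RNAs, which are cut at tRNA genes into mRNAs, and neighbouring genes can overlap. Its 13 protein-coding genes fell into separate ranges of counts. The abundant 6, mt-Nd1, mt-Nd2, mt-Nd4, mt-Nd5, mt-Cytb and mt-Co1, had means of 705 to 4754 CPM over the 15 libraries, and the other 7 had means of 0.821 to 11.6 CPM. Of those 7, mt-Co2, mt-Atp8, mt-Atp6, mt-Co3, mt-Nd3 and mt-Nd4l lie wholly within a stretch that has a near-identical copy in the nuclear genome at chr1:24650616-24655269 (minus strand, GRCm39). The copy aligned to MT:6390-11042 over 4654 bases with 2 mismatches and 1 gap (99.936% identity). The remaining gene, mt-Nd6, is the only one on the other strand and overlaps mt-Nd5 at its end.

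Stretches of mitochondrial genes are printed beside their closest nuclear counterparts, to show where both are the same and where they differ. The first pair is a stretch of mt-Co3 at MT:8907-8966 and its counterpart at chr1:24652693-24652752, with 0 differences, so that no base is in capitals. The second pair is a stretch of mt-Co1 outside the chromosome 1 copy, at MT:5628-5687, and its closest nuclear counterpart at chr2:22479300-22479359 (minus strand), with 1 difference, which is in capitals. The third pair is a stretch of mt-Nd5 at MT:12642-12701 and its closest counterpart at chr4:79920721-79920780 (plus strand), with 8 differences in capitals. All are written in the direction of the mitochondrial gene, in lower case where both agree.
mt-Co3: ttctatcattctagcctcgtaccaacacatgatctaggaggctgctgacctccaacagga
mt-Co3 copy on chromosome 1: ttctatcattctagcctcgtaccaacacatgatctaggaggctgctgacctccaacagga
mt-Co1: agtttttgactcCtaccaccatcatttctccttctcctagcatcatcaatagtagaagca
mt-Co1 counterpart on chromosome 2: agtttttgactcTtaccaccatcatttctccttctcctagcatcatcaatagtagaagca
mt-Nd5: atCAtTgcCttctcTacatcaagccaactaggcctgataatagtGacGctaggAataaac
mt-Nd5 counterpart on chromosome 4: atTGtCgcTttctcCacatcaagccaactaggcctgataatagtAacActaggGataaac

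Of the windows of 150 bases, the read length, 98.5% to 100% in each of the 6 enclosed genes also occur in the nuclear genome. For mt-Co1 the share is 23.6% and for mt-Nd4 59.2%, and for mt-Nd1, mt-Nd2, mt-Nd5, mt-Nd6 and mt-Cytb it is 0%. Per kb of gene, the enclosed genes had 2.76 to 21.2 CPM and the abundant genes 512 to 3077 CPM, and mt-Nd6 had 22.4 CPM without any such window. The 7 pseudogene rows annotated in the chromosome 1 stretch held 652 to 8447 counts each over the 15 libraries. How reads that match both places were counted is not given in the sources used here, so the levels of the 6 enclosed genes are uncertain. Overlaps between neighbours add to this. mt-Atp8 and mt-Atp6 share 43 bases at MT:7927-7969, printed with the start codon of mt-Atp6 and the stop codon of mt-Atp8 in capitals.
mt-Atp8 and mt-Atp6 overlap: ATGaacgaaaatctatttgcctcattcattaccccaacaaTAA

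**Figure D5:**
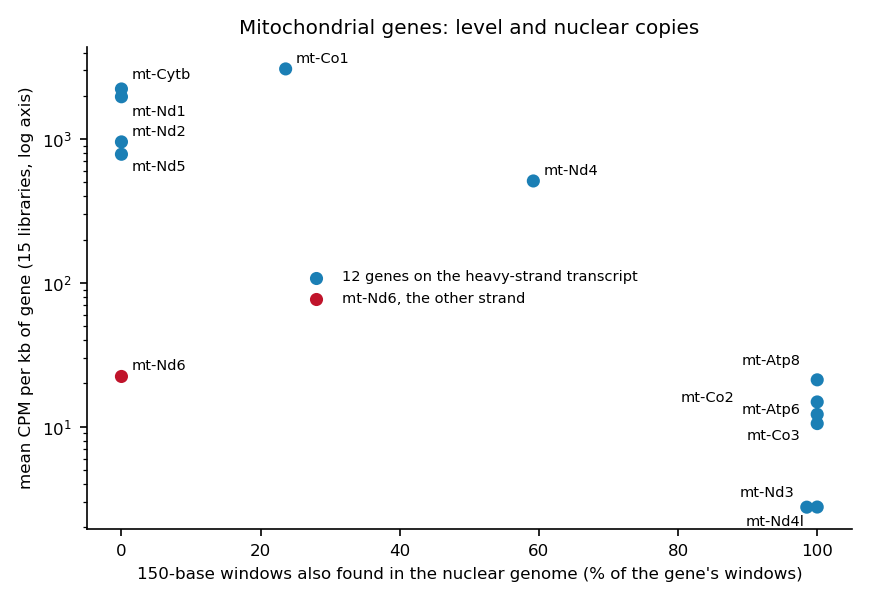
Mean CPM per kb of each mitochondrial gene (log axis, 15 libraries) against the share of its 150-base windows that also occur in the nuclear genome. The 6 genes at 98.5% to 100% lie between 2.76 and 21.2, all below the 6 abundant genes, and mt-Nd6, on the other strand (red), lies at 22.4 with a share of 0%.

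As a sum over the 13 genes, mitochondrial mRNA made up, in percent of all counts, 1.23, 0.621 and 1.09 in the controls, 1.21, 1.78 and 1.72 with SNP100, 1.65, 1.14 and 1.62 with SNP50, 0.778, 0.904 and 1.18 with MSNPs and 1.157, 0.909 and 1.62 with HMSNPs. The exact binomial (Clopper-Pearson) 95% interval of the lowest share, that of Control 2, was 0.618% to 0.624%, which covers counting error only and is far narrower than the spread between replicates. Control 2 was the lowest library and SNP100 replicates 2 and 3 were the highest. The group means were 0.981 ± 0.320 (SD, n = 3) in the controls, 1.57 ± 0.310 with SNP100, 1.47 ± 0.290 with SNP50, 0.953 ± 0.204 with MSNPs and 1.23 ± 0.361 with HMSNPs. The SNP100 and MSNP groups do not overlap, while every other pair of groups overlaps in this sum. mt-rRNA, which poly(A) selection largely removes, made up 0.0230% to 0.0756% of the counts.

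Relative to the controls, the mitochondrial genome genes lay higher with SNP100 in 13 of 13 and with SNP50 in 12 of 13, and none passed the test in any of the 4 comparisons (0.912%, 1.41%, 22.8% and 5.16% of all tested genes did, with SNP100, SNP50, MSNPs and HMSNPs). At an unadjusted p under 0.05 the counts were 5 with SNP100 (10.5% of all tested genes), 3 with SNP50 (12%), 0 with MSNPs (34.5%) and 1 with HMSNPs (24%). DESeq2 called 2 higher with SNP100 (1.25% of all tested genes higher), 2 higher with SNP50 (1.26%), 0 with MSNPs (25% in either direction) and 0 with HMSNPs (9.8%). The median log2 fold changes were 0.50 with SNP100, 0.37 with SNP50, -0.11 with MSNPs and 0.17 with HMSNPs. Without Control 2 they were 0.21, 0.11, -0.37 and -0.078, and without Control 3 they were 0.63, 0.53, 0.11 and 0.34, so that the direction with MSNPs and HMSNPs turned with the control left out. Over the 7 genes not wholly inside the chromosome 1 stretch the medians were 0.57, 0.44, -0.066 and 0.23.

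The abundant ND subunit gene mt-Nd5 had 1270.0, 774 and 995 CPM in the controls, 1405, 2181 and 2112 in the SNP100-treated, 1839, 1393 and 1931 in the SNP50-treated, 919, 1085 and 1283 in the MSNP-treated and 1384, 1145 and 1753 in the HMSNP-treated libraries. mt-Nd6 had 7.92, 5.32 and 13.1 CPM in the controls, 15.1, 17.6 and 14.4 in the SNP100-treated, 22.4, 10.4 and 16.0 in the SNP50-treated, 7.37, 7.66 and 8.54 in the MSNP-treated and 9.46, 8.43 and 10.4 in the HMSNP-treated libraries. Both encode core subunits of the membrane arm, of which ND5 is a proton channel, and for both every SNP100-treated library lay above every control and every MSNP-treated library. mt-Co1, the catalytic subunit of complex IV, had 4425, 2278 and 3773 CPM in the controls, 4571, 7018 and 6839.7 in the SNP100-treated, 6891, 4421 and 6386 in the SNP50-treated, 3045, 3599 and 4495 in the MSNP-treated and 4207, 3382 and 5976 in the HMSNP-treated libraries. Its mean CPM per kb was the highest of the 7 genes not wholly inside the chromosome 1 stretch. MSNP-treated libraries overlapped the controls in all 3 genes. Over the controls, mt-Nd5 had a log2 fold change of 0.91 with SNP100 (adjusted p = 0.0679), which was called in 7 of 24 alternatives (adjusted p from 0.00234 to 0.681).

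Relative to SNP100, the MSNP-treated cells had lower levels of all 13 genes, with a median log2 fold change of -0.57. Only mt-Nd5 and mt-Nd6 were called, 2 of 13 lower (7.53% of all tested genes). The log2 fold change was -0.79 for mt-Nd5 (SE 0.21, adjusted p = 0.0165) and -0.997 for mt-Nd6 (SE 0.28, adjusted p = 0.0208). The values of mt-Nd6 rest on 184 to 664 counts per library, and how fully poly(A) selection captured its RNA was not tested. Over 24 alternatives mt-Nd5 was called in 20 (adjusted p from 0.000305 to 0.0869) and mt-Nd6 in 21 (3.72e-07 to 0.0721). The calls that were lost left out an SNP100- or MSNP-treated library. Since both genes overlap at their ends on opposite strands, and the use of strand in counting is not stated, some reads near that end could belong to either. When only the 6 libraries were fitted, 11 of 13 were called lower (19% of all tested genes). SNP50 versus SNP100 and HMSNP versus MSNP had 0 called genes, with medians of -0.14 and 0.24 and 0 genes each at an unadjusted p under 0.05 (4.37% and 29.9% of all tested genes).

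The highest and lowest of the 13 by fold change with MSNPs over the controls were mostly among the enclosed, rarely counted genes. mt-Nd4l had 1.005, 0.463 and 0.286 CPM in the controls, 0.728, 1.03 and 1.61 in the SNP100-treated, 0.844, 0.680 and 1.12 in the SNP50-treated, 0.595, 0.648 and 0.860 in the MSNP-treated and 0.558, 0.610 and 1.28 in the HMSNP-treated libraries. mt-Atp8, a small subunit of ATP synthase, had 4.42, 2.05 and 3.72 CPM in the controls, 4.99, 6.21 and 5.90 in the SNP100-treated, 5.33, 4.08 and 4.58 in the SNP50-treated, 3.57, 3.27 and 4.12 in the MSNP-treated and 3.94, 3.42 and 5.27 in the HMSNP-treated libraries. With mt-Nd5 these were the highest 3, at 0.29, 0.10 and 0.11. The lowest 3 were mt-Co2, mt-Co3 and mt-Nd3, at -0.32, -0.21 and -0.19. The first pair are core subunits of complex IV and mt-Nd3 encodes one of complex I. mt-Co2 had 11.9, 5.67 and 13.95 CPM in the controls, 10.4, 13.2 and 12.7 in the SNP100-treated, 12.02, 8.13 and 9.15 in the SNP50-treated, 6.87, 7.10 and 11.3 in the MSNP-treated and 9.08, 7.82 and 13.4 in the HMSNP-treated libraries. mt-Co3 had 8.65, 5.55 and 9.74 CPM in the controls, 8.61, 10.2 and 9.94 in the SNP100-treated, 10.3, 7.31 and 8.51 in the SNP50-treated, 5.98, 5.78 and 8.98 in the MSNP-treated and 8.52, 6.42 and 9.26 in the HMSNP-treated libraries. mt-Nd3 had 0.822, 0.665 and 1.54 CPM in the controls, 1.04, 1.17 and 1.163 in the SNP100-treated, 1.32, 1.22 and 0.8 in the SNP50-treated, 0.991, 0.999 and 0.682 in the MSNP-treated and 0.676, 0.663 and 0.664 in the HMSNP-treated libraries. In all 6 genes the MSNP-treated libraries overlapped the controls, and for mt-Co2 and mt-Co3 the lowest library was Control 2.

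Both classes were then set side by side. The mitochondrial genes varied together between the libraries, with a median Pearson correlation of 0.963 over the 15 pairs of the 6 abundant genes, as did the nuclear genes (0.937 over 666 pairs), whereas the median between the classes was 0.283 over 222 pairs. These correlations describe 15 libraries that share depth and preparation and include Control 3. Over the 12 treated libraries the medians were 0.967, 0.893 and 0.388. The ratio of summed mitochondrial to summed nuclear counts was 4.74, 2.57 and 2.67 in the controls, 4.33, 6.49 and 6.11 with SNP100, 4.98, 3.85 and 5.54 with SNP50, 3.15, 3.74 and 4.69 with MSNPs and 4.75, 3.79 and 6.79 with HMSNPs. The controls hold the extremes of both classes: Control 2 had the lowest mitochondrial share and Control 3 the highest nuclear share, and their ratios were 2.57 and 2.67. The mean log2 ratio relative to the controls was 0.80 with SNP100, 0.57 with SNP50, 0.26 with MSNPs and 0.64 with HMSNPs. Single libraries moved the values of SNP50, MSNPs and HMSNPs by over 1.5 times. The SNP100 value ran from 0.64 without Control 2 to 1.09 without Control 1. The MSNP value was 0.54 without Control 1, 0.099 without Control 2, 0.13 without Control 3, 0.39 without MSNP replicate 1 and 0.11 without MSNP replicate 3, the SNP50 value was 0.86 without Control 1, and the HMSNP value was 0.41 without HMSNP replicate 3.

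The spread of the classes differed as well. Across the 3 libraries of a group, the SD of the nuclear share was 0.00255 to 0.0222 percentage points in the particle-treated groups and 0.0908 in the controls. The SD of the mitochondrial share was 0.204 to 0.361 in all groups, so that the mitochondrial sum varied between replicates of treated cells more than the nuclear sum did. Libraries in which the mitochondrial genes lay above the other libraries of their group did not all show the same length trend. Median deviations over these genes were 0.47 in Control 1, 0.53 in Control 3 and 0.66 in HMSNP replicate 3. The length correlations of these libraries were 0.580, -0.719 and -0.126. Control 2, the library lowest in mitochondrial share, is part of the reference mean of both controls. The share of Control 3 (1.09%) was below that of Control 1 (1.23%).

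The nuclear genes of the other respiratory complexes also had negative median fold changes with MSNPs and HMSNPs over all 3 controls. With HMSNPs, the median log2 fold change over the controls was -0.29 for complex II (4 genes), -0.43 for complex III (9), -0.47 for complex IV (10) and -0.38 for ATP synthase (17 tested of 18), with 0 called in each (5.16% of all tested genes). At an unadjusted p under 0.05, 2, 6, 9 and 10 of them passed (24%). With MSNPs the medians were -0.15, -0.32, -0.39 and -0.27, with 0, 1, 2 and 3 genes called lower (11% of all tested genes). Without Control 3 the medians lay between -0.087 and -0.073 with HMSNPs and between -0.00326 and 0.11 with MSNPs, and with SNP50 2, 8, 9 and 13 genes were called higher (9.63%). The calls with MSNPs were then 1 higher in complex II, 1 lower in complex IV and 0 in complex III and ATP synthase (16.3% higher and 13.2% lower).

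Named by the lowest p in each list, Uqcr10, a small subunit of complex III, had 58.2 ± 1.34 CPM (SD, n = 3) with MSNPs and 87.1 ± 38.1 in the controls (log2 fold change -0.58, SE 0.20, adjusted p = 0.0484), which was -0.16 without Control 3 (adjusted p = 0.139). Uqcr11 had -0.51, and with HMSNPs Cyc1, the cytochrome that passes electrons to cytochrome c, had -0.28 and Uqcrq -0.46, none called. In complex IV, Cox7b (-0.49, adjusted p = 0.0330) and Cox7c (-0.61, adjusted p = 0.0448) were lower with MSNPs. Without Control 3 they were -0.18 (adjusted p = 0.0487) and -0.16 (adjusted p = 0.0818), so that only Cox7b stayed called. Cox6c (-0.60) and Cox7a2 (-0.55) were the lowest p with HMSNPs without a call. In ATP synthase, Atp5mk (-0.67, adjusted p = 0.0344) and Atp5f1e (-0.74, adjusted p = 0.0404) were lower with MSNPs, and without Control 3 both calls were lost, at -0.22 (adjusted p = 0.0817) and -0.19 (adjusted p = 0.0928). Atp5f1e had -0.70 and Atp5pd -0.58 with HMSNPs, neither called. Complex II gave no call with all 3 controls, with Sdha at 0.16 and Sdhc at -0.20 with MSNPs, and Sdhc at -0.38 and Sdhb at -0.33 with HMSNPs.

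Genes that act on the mitochondrial genome and its RNA were called in both directions with MSNPs, 3 higher and 5 lower of 22 (11.8% of all tested genes were called higher and 11% lower). Lrpprc, which stabilises mitochondrial mRNAs, rose from 140.5 ± 19.9 to 202 ± 3.38 CPM (log2 fold change 0.52, SE 0.081, adjusted p = 0.000194), and it was 0.43 higher without Control 3. Ssbp1, the mitochondrial single-strand DNA-binding protein, fell from 64.6 ± 15.7 to 44.8 ± 0.809 CPM (-0.53, SE 0.12, adjusted p = 0.00477), and the value was -0.30 without Control 3. With HMSNPs 0 of 22 were called (5.16% of all tested genes), with Pnpt1, an RNA-degrading enzyme of mitochondria, at 0.25 (adjusted p = 0.0545) and Tfam, the factor that starts mitochondrial transcription, at -0.27 (adjusted p = 0.0927). Without Control 3 the counts were 5 higher and 4 lower with MSNPs (16.3% and 13.2% of all tested genes). With HMSNPs 1 was then called higher (8.66% of all tested genes in either direction), Pnpt1 at 0.18 (adjusted p = 0.0389 in the same test). Among 8 tested nuclear regulators of respiratory genes, 2 were called higher with MSNPs (11.8% of all tested genes) and 1 higher with HMSNPs (2.46%). Nfe2l2, the oxidative stress factor NRF2, rose with MSNPs from 191 ± 3.64 to 353 ± 7.37 CPM (0.89, SE 0.051, adjusted p = 4.96e-09) and with HMSNPs to 224 ± 5.31 CPM (0.23, SE 0.051, adjusted p = 0.0170). Ppargc1b, a coactivator of respiratory genes, rose with MSNPs from 17.0 ± 3.19 to 27.1 ± 1.48 CPM (0.67, SE 0.11, adjusted p = 0.000315), and had 20.7 ± 1.19 CPM with HMSNPs (0.28, adjusted p = 0.143).

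Of 18 tested assembly factors of complex I, 1 was called higher and 1 lower with MSNPs and 0 with HMSNPs, where 22.8% and 5.16% of all tested genes were called. Without Control 3 the counts were 3 higher and 1 lower with MSNPs (16.3% and 13.2% of all tested genes) and 0 with HMSNPs (8.66%). Tmem126b, which takes part in building the membrane arm, rose from 18.2 ± 0.429 to 21.9 ± 0.676 CPM (0.27, SE 0.063, adjusted p = 0.00611), and Dmac2 fell from 24.2 ± 4.28 to 17.8 ± 1.397 CPM (-0.44, SE 0.11, adjusted p = 0.00731). Both stayed called without Control 3, at 0.29 and -0.30. With HMSNPs, Ndufaf1 had -0.33 (adjusted p = 0.0939) and Timmdc1 -0.29 (adjusted p = 0.124).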

How the data were processed

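RAW 264.7 libraries were made by the authors from poly(A) RNA with a directional kit and sequenced as read pairs of 150 bases. Per the labels, reads were placed on GRCm39, and the submitters' processing notes name STAR 2.7.9a, cutadapt 1.16 and featureCounts 1.6.3, whereas the annotation release, the use of strand and the treatment of reads with several matches are not given in the sources used here. The deposited values are raw counts per gene for 57186 genes, of which 56630 matched GENCODE vM39, the source of lengths and positions. Totals of 29369900 to 42617800 counts per library set the precision. Genes with at least 10 counts over the 15 libraries were tested with edgeR 4.0.16 (R 4.3.3, limma 3.58.1), by TMM and the quasi-likelihood test on all libraries, and called at a Benjamini-Hochberg adjusted p under 0.05 over all tested genes. The script was tested on simulated data. Log2 CPM used a prior count of 2. Length trends used genes with a mean log2 CPM above 1 and, for the length offset, a lowess span of 0.30. Nuclear copies were searched with blastn 2.17.0 and samtools 1.23.1.

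Alternatives were DESeq2 1.42.0, other scaling and filters, fits of 6 libraries, the replicate number as a block, the length offset and each library left out. A summary over the 7 mitochondrial genes outside the chromosome 1 copy was chosen after seeing the data. Genes and lists were chosen with earlier results of these data known. Values per library are given for genes called against the controls, nuclear core subunits, and the 3 mitochondrial genes highest and the 3 lowest by fold change with MSNPs. Of each other list, the 2 genes with the lowest p with MSNPs and the 2 with HMSNPs are named. Ndufa8, Ndufb10, Ndufa4, mt-Nd6 and mt-Co1 were added after their values were seen. One item that the rule covers is not reported here.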

Additional observations from a re-analysis of the deposited data

How the results depend on the processing

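Calls of nuclear complex I genes depended on the control libraries. The only call of the main fit, Ndufb1 with MSNPs, was also lost when any MSNP-treated library was left out. With 1 library left out at a time, the number called ranged from 0 to 9 for SNP100 versus Control, 0 to 32 for SNP50 versus Control, 0 to 27 for MSNP versus Control, 0 to 36 for HMSNP versus Control, 0 to 18 for MSNP versus SNP100, 0 to 2 for SNP50 versus SNP100 and 0 to 7 for HMSNP versus MSNP. The highest counts came without Control 3, except for MSNP and HMSNP versus Control, where they came without Control 2. Shares of all tested genes moved in these fits as well. Without Control 3, 2.84% were called higher with SNP100 and 9.63% with SNP50 (0.912% and 1.41% in either direction with all libraries). Without Control 2, 16.8% were called lower with MSNPs and 11.9% with HMSNPs (11% and 2.7% with all libraries). Between particles, without Control 3, the shares were 18.2% higher and 14.8% lower, 0.286% higher and 18.4% lower, in the order above. For the mitochondrial genes the ranges were 0 to 2 for SNP100, 0 to 3 for SNP50 and 0 to 1 for HMSNP versus Control, and 0 to 4 for MSNP versus SNP100. The highest counts with SNP100 and SNP50 came without Control 3, where the shares of all tested genes are those given above. The cause was not tested.

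For nuclear genes with MSNPs over the controls, DESeq2 gave 5 calls (25% of all tested genes in either direction). The offset without Control 3 gave 8 (15.9% higher and 16.2% lower). TMM without the mitochondrial genome gave 2, filterByExpr 4, no filter 5, the 6 libraries alone 0 and the length offset 9, where the main fit called 22.8% of all tested genes. With HMSNPs the counts were 5 with DESeq2 (9.8% of all tested genes), 2 with no filter and 2 with the offset (5.16% in the main fit). With SNP50 they were 1 with the offset and 16 with the offset without Control 3 (7.05% of all tested genes higher). With SNP100 the offset without Control 3 gave 3 (3.12% higher). MSNP versus SNP100 had 26 calls in the 6 libraries alone (21.9% of all tested genes higher and 19% lower), 4 with the offset and 13 with the offset without Control 3. HMSNP versus MSNP had 13 (20.4% lower), 4 and 6. For mitochondrial genes, DESeq2, the offset and the offset without Control 3 gave 2 calls each with SNP100 and with SNP50 over the controls, and no filter gave 1 with SNP100. DESeq2 called 1.25% and 1.26% of all tested genes higher with SNP100 and SNP50. MSNP versus SNP100 had 4 calls with DESeq2 (19.6% of all tested genes), 4 with no filter and 11 in the 6 libraries alone (19% lower). HMSNP versus MSNP had 2 when only its 6 libraries were fitted. Where no share stands beside a count in this section, the share of all tested genes in that setting is not given here. Such a count is not read as a result about these genes.

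Among the core subunits with MSNPs over the controls, leaving out 1 library gave log2 fold changes of -0.38 to 0.058 for Ndufs3, -0.38 to 0.16 for Ndufs7, -0.46 to 0.042 for Ndufv2 and -0.11 to 0.35 for Ndufs8. The direction turned without Control 3 for the first 3 and without Control 1 (-0.067) or Control 2 (-0.11) for Ndufs8. It also turned with the length offset for Ndufs7 (0.10), and with the offset without Control 3 for Ndufs3 (0.027), Ndufs7 (0.17) and Ndufv2 (0.0048). With the replicate block, MSNP versus SNP100 had 4 mitochondrial calls. Replicate numbers are not stated to mark a shared culture, correlations between libraries of the same number ran from -0.518 to 0.573, and 8 of 15 libraries correlated best with their own number, so the pairing was not used.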
